A study of Mus musculus with 9 samples.

Results

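MHC class I molecules pair a polymorphic heavy chain with B2m, the invariant light chain. 10 genes of this system, 9 heavy chain genes and B2m, were chosen by name, with earlier results of these data known. All were found among the 24493 genes of a table of mouse pancreatic tumor expression. The heavy chains were the classical H2-K1 and H2-D1, the Q region genes H2-Q4, H2-Q6 and H2-Q7, the T region genes H2-T22 and H2-T23, and the M region genes H2-M2 and H2-M3. Polyadenylated RNA was measured in 9 samples of pancreatic tumor cells of the C57BL/6 line 6419c5, labelled late stage and taken from tumors implanted under the skin of mice. The 3 groups of 3 samples were WT, Usp22-KOA and Usp22-KOB, which share the strain, the line and the implantation and differ in the genotype label. Usp22 encodes the ubiquitin protease of the SAGA transcription coactivator. All 3 groups derive from 1 tumor cell clone, which limits them as a model. The meaning of A and B, the way tumor cells were parted from host cells, and the age and sex of the mice are not given in the labels. Nothing in the labels ties each sample to a mouse of its own, so a p-value here covers the spread between samples only, and that spread may be technical.

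Classical class I molecules sit on the surface of most nucleated cells and present peptides made in the cell to CD8 T cells. A heavy chain needs a peptide and B2m to reach the surface in a stable form. Nonclassical heavy chains are less variable and reach other receptors: H2-T23 encodes Qa-1, which binds the NKG2A receptor of NK cells, H2-M3 presents formylated peptides, and H2-T22 is a ligand of some gamma-delta T cells. Class I genes are known targets of interferon gamma, through IRF1 and the coactivator NLRC5. Tumors often carry low class I levels, which limits their recognition by T cells.

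Levels are in TPM, the estimated share of transcripts scaled to 1000000 per library, which corrects for transcript length and can be compared between genes. The read depth cannot be recovered from TPM, and the number of samples, 3 in each group, limits the precision. Differences are of log2(TPM + 1) ± SE from limma over all 9 samples, p-values are Benjamini-Hochberg adjusted over the 13843 genes whose mean reached 1 TPM, and a gene passed under 0.05. Changes of low genes come out too small on this scale. Usp22 was lower than in WT in each knockout sample, by -2.44 ± 0.10 in Usp22-KOA and -1.96 ± 0.10 in Usp22-KOB (limma adjusted p = 1.8e-07 and 2.2e-06), so its level went with the labels. Epithelial markers were present in all 9 samples, summing to 6331 to 9043 TPM over 10 genes, and 0 of the 10 were at 0 throughout. They moved with the groups: 8 of 10 were called lower and 1 higher in Usp22-KOA, and 6 of 10 lower and 0 higher in Usp22-KOB. Of all tested genes, 56.3% and 37.1% were called in either direction in these comparisons.

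The H2 heavy chain genes lie together on chromosome 17 and B2m stands alone on chromosome 2. In the GENCODE M21 annotation of GRCm38 (mm10), all 10 are protein coding. H2-K1 spans 33996017 to 34000347 on chromosome 17, and H2-D1 spans 35262730 to 35267499. The Q region follows, with H2-Q4 at 35379617 to 35385290, H2-Q6 at 35424850 to 35430055 and H2-Q7 at 35439155 to 35443773. H2-T23 lies at 36029773 to 36032855 and H2-T22 at 36037128 to 36042747. H2-M3 lies at 37270220 to 37274484 and H2-M2, the farthest of the 9 from H2-K1, at 37480851 to 37483552. B2m spans 122147686 to 122153083 on chromosome 2.

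The bases before the transcription start are shown because 8 tested members shared 1 order of the groups, WT below Usp22-KOB below Usp22-KOA, and H2-M2 had another. RefSeq entries (GRCm38.p6) matched all 10 members. For 8 of them the 205 bases before the first listed start are printed, 5′ to 3′ on the strand of the gene. Capitals mark matches to the motifs named further below. By the GENCODE spans above, the H2-D1 stretch lies inside its gene, as does most of the H2-T23 stretch. Distances from the start therefore depend on the start used. The stretches lie as follows: H2-K1 at chr17:34000348-34000552 on the minus strand, H2-D1 at chr17:35262889-35263093 on the plus strand, H2-Q4 at chr17:35379412-35379616 on the plus strand, H2-T22 at chr17:36042743-36042947 on the minus strand. Those of the others are H2-T23 at chr17:36032702-36032906 on the minus strand, H2-M3 at chr17:37270029-37270233 on the plus strand, H2-M2 at chr17:37483555-37483759 on the minus strand, and B2m at chr2:122147482-122147686 on the plus strand.
H2-K1: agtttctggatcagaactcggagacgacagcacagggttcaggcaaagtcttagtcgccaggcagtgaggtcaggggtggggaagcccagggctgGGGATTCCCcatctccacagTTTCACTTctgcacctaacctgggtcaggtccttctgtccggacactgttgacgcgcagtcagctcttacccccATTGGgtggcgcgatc
H2-D1: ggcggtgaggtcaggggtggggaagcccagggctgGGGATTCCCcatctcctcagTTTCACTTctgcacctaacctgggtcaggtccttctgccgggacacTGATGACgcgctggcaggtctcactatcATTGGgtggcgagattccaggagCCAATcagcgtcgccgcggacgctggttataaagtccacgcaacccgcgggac
H2-Q4: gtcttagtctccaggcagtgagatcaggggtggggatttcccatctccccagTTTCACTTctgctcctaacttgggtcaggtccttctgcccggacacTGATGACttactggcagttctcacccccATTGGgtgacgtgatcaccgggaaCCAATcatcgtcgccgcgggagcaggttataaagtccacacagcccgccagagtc
H2-T22: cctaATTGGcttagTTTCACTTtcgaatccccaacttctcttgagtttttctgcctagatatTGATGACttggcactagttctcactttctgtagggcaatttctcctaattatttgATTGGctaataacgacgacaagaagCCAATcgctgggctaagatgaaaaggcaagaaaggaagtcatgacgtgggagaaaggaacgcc
H2-T23: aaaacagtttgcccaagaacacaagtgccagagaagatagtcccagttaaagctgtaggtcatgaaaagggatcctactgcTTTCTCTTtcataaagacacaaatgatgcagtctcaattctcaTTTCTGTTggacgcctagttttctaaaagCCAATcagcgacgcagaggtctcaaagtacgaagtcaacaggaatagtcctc
H2-M3: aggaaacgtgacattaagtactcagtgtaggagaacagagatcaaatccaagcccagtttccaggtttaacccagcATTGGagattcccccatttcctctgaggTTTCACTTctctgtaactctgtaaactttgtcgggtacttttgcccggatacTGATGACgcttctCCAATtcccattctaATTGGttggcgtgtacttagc
H2-M2: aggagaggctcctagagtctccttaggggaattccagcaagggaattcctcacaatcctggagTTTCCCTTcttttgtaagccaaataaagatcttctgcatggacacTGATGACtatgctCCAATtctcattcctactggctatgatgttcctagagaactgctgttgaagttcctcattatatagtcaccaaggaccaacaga
B2m: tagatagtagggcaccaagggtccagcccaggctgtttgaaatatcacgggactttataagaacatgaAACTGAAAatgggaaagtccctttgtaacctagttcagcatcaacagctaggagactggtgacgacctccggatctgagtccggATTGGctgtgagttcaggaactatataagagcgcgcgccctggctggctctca

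Class I promoters are known for an enhancer A element that NF-kB can bind, an interferon-stimulated response element (ISRE) that IRF proteins can bind, and an X and Y box module where NLRC5 acts with RFX, CREB and NF-Y proteins. The letters searched on both strands were GGGATTCCC for the enhancer A core, TTTCACTT for the ISRE core, TGATGAC for part of the X box and ATTGG for the Y box. They were chosen after the members' promoters had been read. A relaxed ISRE core, TTTCNNTT, contains each TTTCACTT match. Over the 250 bases before the start, GGGATTCCC was found in 4 of 10 members (H2-K1, H2-D1, H2-Q6 and H2-Q7) and in 0.311% of 27025 promoters. TTTCACTT was found in 7 of 10 members and in 1.44% of promoters, and the members without it were B2m, H2-T23 and H2-M2. TGATGAC was found in 7 of 10, absent from B2m, H2-K1 and H2-T23, against 2.77% of promoters. TTTCNNTT and ATTGG were found in 10 of 10 members each, but also in 21.6% and 34.5% of all promoters. A match is a run of letters and does not show that a protein binds there.

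**Figure D1:**
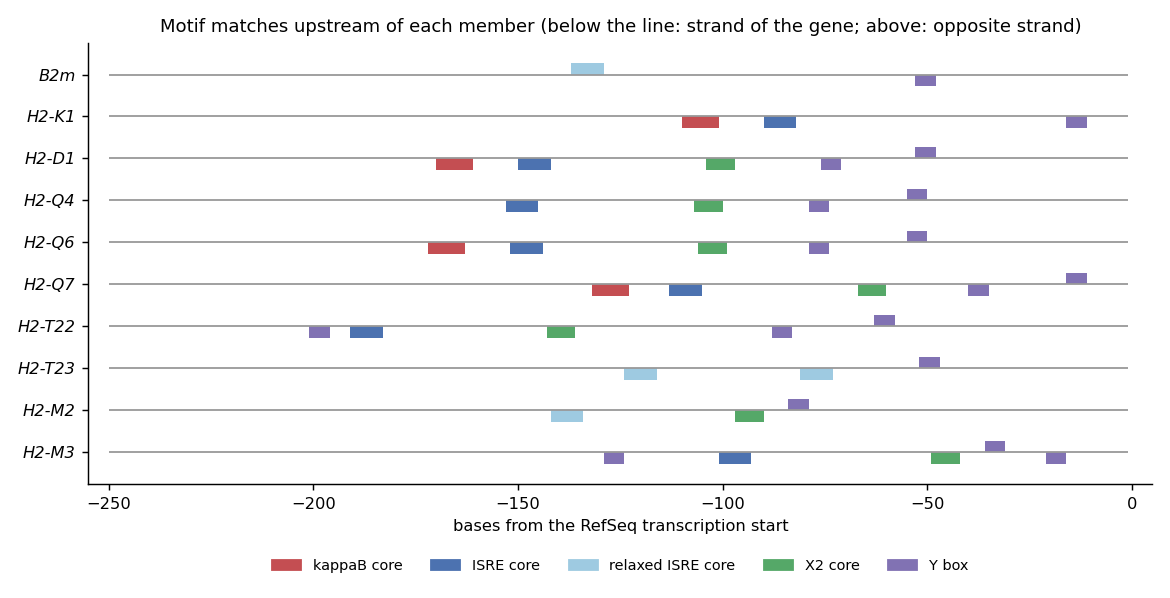
Matches to 5 motifs in the 250 bases before the RefSeq start of each member, by distance from the start in bases, with the strand of the gene below the line and the opposite strand above it. The ISRE core lies between the enhancer A core (kappaB core) and the start in each of the 4 members that hold both, and of the ISRE cores H2-M2, H2-T23 and B2m hold only the relaxed one.

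H2 genes resemble each other, so reads can be shared between relatives. Of the 31-base words in each member's GENCODE M21 transcripts, 0% were found in another gene for B2m, 3.20% for H2-M2 and 4.62% for H2-M3. The share was 22.8% for H2-K1, 26.7% for H2-D1 and 24.5% for H2-T23. It was 38.4% for H2-Q4, 39.1% for H2-Q7, 50.3% for H2-Q6 and 51.0% for H2-T22, whose words were mostly shared with H2-T10 (47.2%). Values of B2m, H2-M2 and H2-M3 are therefore the least exposed to relatives in this annotation. The labels do not name the authors' transcript set, and H2-L, H2-Q8, H2-Q9 and H2-T9, which their table lists, had no entry by that symbol in the annotation used for this count.

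Most class I genes were higher in each knockout than in WT. Of the 10 members 9 reached a mean of 1 TPM and were tested, each with a mean above 1 TPM in WT itself, and all 9 rose in the mean of both knockouts, while 25.9% of all tested genes were called higher. By at least 2-fold 9 of 9 rose, against 3.58% of all genes. The members were chosen with earlier results of these data known, so such counts describe the chosen set and are no independent test. The median difference of the 9 was 2.53, and that of all tested genes was 0.0087. In bulk samples, more cells of a type with the gene on and more RNA of the gene per cell cannot be told apart.

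**Figure D2:**
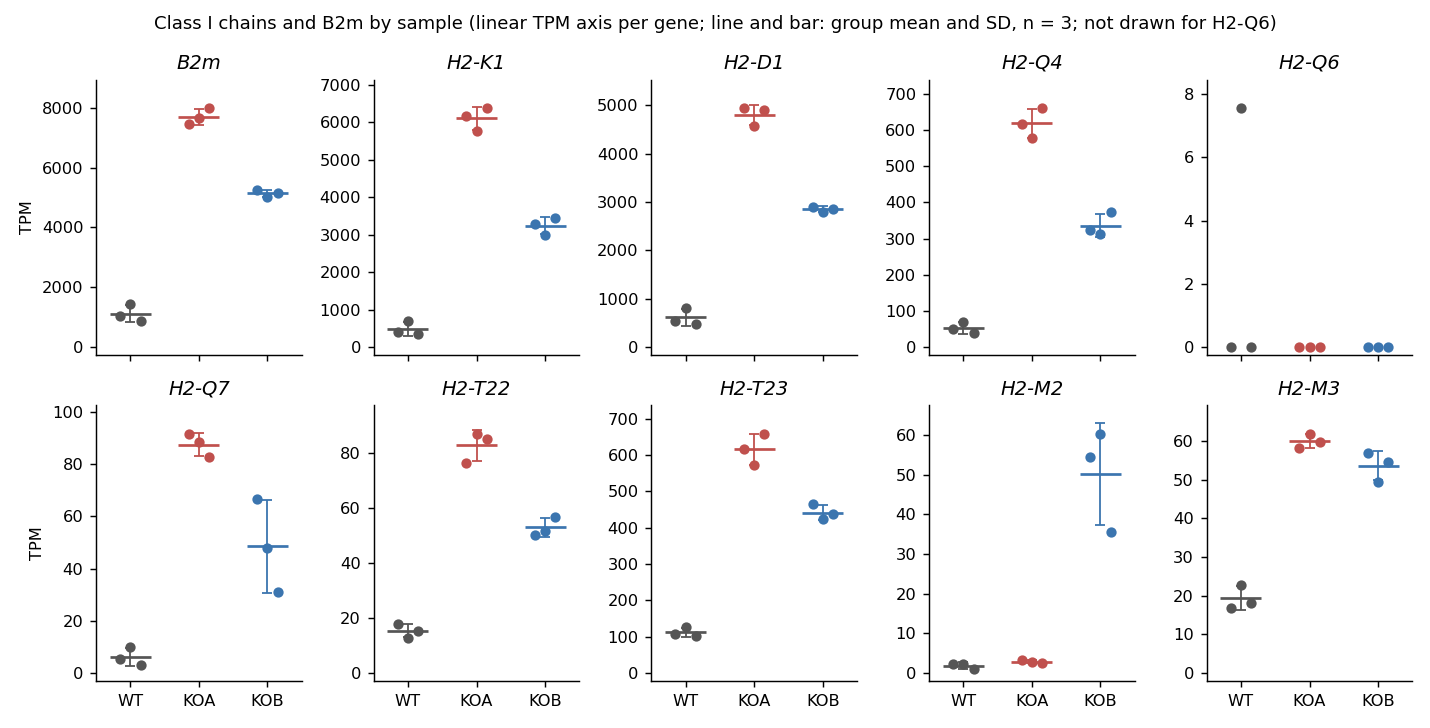
TPM of each of the 10 members in the 9 samples, 1 panel per gene with its own linear axis, and the group mean and SD (n = 3) as a line and bar, except for H2-Q6. For 8 members both knockouts lie above WT with Usp22-KOA highest, H2-M2 is high only in the Usp22-KOB samples, at 35.6 to 60.3 TPM, and H2-Q6 is listed above 0 in 1 sample.

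B2m encodes the light chain that classical heavy chains need for a stable surface form. Its level in WT was 1026, 1436 and 881 TPM, against 7449, 7646 and 7981 TPM in Usp22-KOA. The Usp22-KOB samples held 5266, 5033 and 5136 TPM. The groups did not overlap, and both knockouts varied less than WT, with a coefficient of variation of 3.49% and 2.26% against 25.8%. The knockout means, 7692 ± 269 and 5145 ± 117 TPM, were 6.90-fold and 4.62-fold of the WT mean of 1114 ± 288 TPM (SD, n = 3). B2m was the 125th gene of the table by level in WT, the 5th in Usp22-KOA and the 15th in Usp22-KOB. The log2 difference was 2.82 ± 0.15 in Usp22-KOA (limma adjusted p = 7.1e-07) and 2.24 ± 0.15 in Usp22-KOB (limma adjusted p = 1.1e-05).

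H2-K1 encodes the classical K heavy chain. WT samples held 416, 688 and 357 TPM of it, Usp22-KOA samples 6165, 5768 and 6370.5 TPM, and Usp22-KOB samples 3293, 2993 and 3435 TPM. All values of each knockout lay above all of WT, and all of Usp22-KOA above all of Usp22-KOB. The means of 487 ± 177, 6101 ± 306 and 3241 ± 226 TPM (SD, n = 3) put Usp22-KOA 12.5-fold and Usp22-KOB 6.65-fold above WT. Its log2 difference was 3.70 ± 0.20 in Usp22-KOA (limma adjusted p = 8.8e-07) and 2.79 ± 0.20 in Usp22-KOB (limma adjusted p = 1.9e-05). Among the 13843 genes it had the 50th highest difference in Usp22-KOA and the 30th in Usp22-KOB.

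H2-D1, the classical D heavy chain, was the more abundant classical chain in WT, at 545, 811 and 483 TPM. Usp22-KOA samples held 4938, 4569 and 4912 TPM, and Usp22-KOB samples 2906, 2802 and 2863 TPM. The 3 groups again did not overlap. Its log2 difference was 3.0 ± 0.16 in Usp22-KOA (limma adjusted p = 7.5e-07) and 2.25 ± 0.16 in Usp22-KOB (limma adjusted p = 1.6e-05). H2-D1 exceeded H2-K1 in each WT sample, and H2-K1 exceeded H2-D1 in each knockout sample. The ratio of H2-K1 to H2-D1 was 0.738 to 0.849 in WT, 1.25 to 1.30 in Usp22-KOA and 1.07 to 1.20 in Usp22-KOB. These genes share words (11.1% of those of H2-K1), so their single values are less certain.

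H2-Q4 encodes a nonclassical chain of the Q region. It rose from 51.2, 70.8 and 37.9 TPM in WT to 616, 579 and 659.7 TPM in Usp22-KOA and to 322, 312 and 372 TPM in Usp22-KOB. It rose by 3.55 ± 0.19 on the log2 scale in Usp22-KOA, and by 2.67 ± 0.19 in Usp22-KOB (limma adjusted p = 7.5e-07 and 1.6e-05). H2-Q4 lay below H2-T23 in WT and Usp22-KOB, and the ranges of both, 579 to 659.7 and 572 to 657 TPM, overlapped in Usp22-KOA.

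H2-Q7 encodes a Qa-2 chain, a nonclassical molecule that can be held at the membrane by a lipid anchor. It stood at 5.39, 9.83 and 3.07 TPM in WT, 91.5, 88.3 and 82.6 TPM in Usp22-KOA, and 66.6, 47.8 and 31.03 TPM in Usp22-KOB. The 3 groups did not overlap, but Usp22-KOB was widely spread, with a coefficient of variation of 36.7% against 5.13% in Usp22-KOA. Its log2 difference was 3.75 ± 0.35 in Usp22-KOA (limma adjusted p = 2.2e-05) and 2.85 ± 0.35 in Usp22-KOB (limma adjusted p = 3.9e-04). H2-Q6, also a Qa-2 gene, was listed at 7.54 TPM in WT sample 2 and at 0 in the other 8 samples. Its mean of 0.838 TPM kept it out of the test. The summed level of H2-Q6 to H2-Q9 is less exposed to a division of reads among these genes. It was 9.31 to 28.5 TPM in WT, 295 to 328 in Usp22-KOA and 118 to 194 in Usp22-KOB, and did not overlap between groups. The sum does not cover sharing with genes outside it: 22.4% of H2-Q7 words were shared with H2-Q10 and 24.6% of H2-Q6 words with H2-Q4.

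H2-T23, which encodes Qa-1, was the highest nonclassical chain in WT at 107, 125 and 102 TPM. Usp22-KOA samples held 617, 572 and 657 TPM, and Usp22-KOB samples 465, 422 and 437 TPM. All knockout values lay above all WT values, with the smallest error of the 9 members. Its log2 difference was 2.46 ± 0.08 in Usp22-KOA (limma adjusted p = 8.7e-08) and 1.98 ± 0.08 in Usp22-KOB (limma adjusted p = 1.1e-06). Klrc1 and Klrd1, which encode the NKG2A and CD94 chains of the Qa-1 receptor on NK and T cells, were low in WT, at 0.139 to 0.319 and 0.307 to 1.73 TPM. They rose by 1.5 ± 0.17 and 1.89 ± 0.33 in the mean of both knockouts (limma adjusted p = 9.9e-05 and 0.00129). Klrk1 encodes the NKG2D receptor, whose ligands are class I-like molecules outside the H2 complex. Klrk1 and Cd8b1, a chain of the CD8 coreceptor, rose by 1.14 ± 0.17 and 1.31 ± 0.28 (limma adjusted p = 5.97e-04 and 0.00447). All 6 tested receptors of class I or class I-like molecules, of 11 listed, rose in that mean, with a median of 1.23. In Usp22-KOA 5 of 6 passed, and in Usp22-KOB 5 of 6. Of all tested genes 25.9%, 29.4% and 18.7% were called higher in these comparisons. Klrc1, Klrd1, Klrk1 and Cd8b1 had WT means of 0.227, 0.797, 0.435 and 0.329 TPM. They reached the tested level only through the knockout samples, so these counts were partly set by the filter.

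H2-T22 stood at 17.6, 12.8 and 15.4 TPM in WT, 76.5, 87.0 and 85.2 TPM in Usp22-KOA, and 50.4, 51.8 and 56.9 TPM in Usp22-KOB. Its groups did not overlap. It rose by 2.37 ± 0.11 on the log2 scale in Usp22-KOA, and by 1.74 ± 0.11 in Usp22-KOB (limma adjusted p = 3.5e-07 and 8.1e-06). H2-T10, its close relative, lay in the same order, at 1.38 to 2.01, 12.2 to 14.1 and 6.64 to 9.79 TPM.

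H2-M3 was the tested member with the smallest rise in both knockouts together, 1.52 ± 0.09 (limma adjusted p = 2.7e-06). It stood at 16.9, 22.8 and 18.2 TPM in WT, 58.4, 61.8 and 59.8 TPM in Usp22-KOA, and 57.1, 49.5 and 54.5 TPM in Usp22-KOB. Both knockouts were apart from WT, and they lay close to each other. The difference between them was 0.16 ± 0.10 (limma adjusted p = 0.228).

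H2-M2 had a pattern of its own among the members. It stood at 2.28, 2.35 and 0.939 TPM in WT, 3.22, 2.78 and 2.47 TPM in Usp22-KOA, and 54.6, 60.3 and 35.6 TPM in Usp22-KOB. Usp22-KOB lay far above the other groups, and the lowest Usp22-KOA value was only just above the highest WT value. The log2 difference from WT was 4.17 ± 0.25 in Usp22-KOB (limma adjusted p = 6.6e-06), the 6th highest of the 13843 genes. In Usp22-KOA it was 0.46 ± 0.25 and did not pass (limma adjusted p = 0.145). Its difference in the mean of both knockouts, 2.32 ± 0.21, is therefore set by Usp22-KOB, and it did not pass with the 6 knockout samples as 1 group (limma adjusted p = 0.159).

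**Figure D3:**
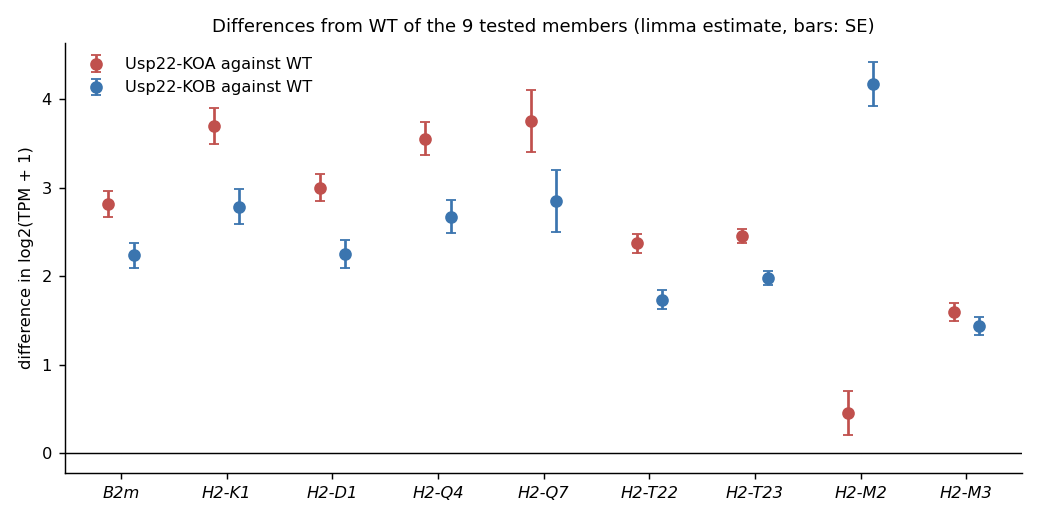
Difference from WT in log2(TPM + 1) with its SE, for the 9 tested members in each knockout, with a line at 0. Differences in Usp22-KOA run from 0.46 (H2-M2) to 3.75 (H2-Q7) and in Usp22-KOB from 1.44 (H2-M3) to 4.17 (H2-M2), and H2-M2 is the member for which Usp22-KOB lies higher.

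Against WT, 8 of 9 members rose in Usp22-KOA, where 29.4% of all tested genes were called higher, and 9 of 9 in Usp22-KOB, where 18.7% were. Both comparisons use the same WT samples. All 3 values lay above all of WT for 9 of 9 members in Usp22-KOA and 9 of 9 in Usp22-KOB, against 34.2% and 25% of all tested genes. The contrast of the knockouts with each other holds no WT mean, but its error was estimated over all 9 samples, WT included. In it 7 of 9 members differed, against 51.7% of all tested genes. 6 were higher in Usp22-KOA (27.5% of all genes) and 1, H2-M2, was lower (24.2%). The values of the knockouts did not overlap for 9 of 9, with 8 higher in Usp22-KOA (31.3% of all genes) and 1 lower (27.1%).

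Between the knockouts, the classical chains and H2-Q4 differed most among the 6 members higher in Usp22-KOA. H2-K1 differed by 0.91 ± 0.20, H2-Q4 by 0.88 ± 0.19 and H2-D1 by 0.75 ± 0.16 (limma adjusted p = 0.00466, 0.00383 and 0.00367). H2-T22 differed by 0.63 ± 0.11, B2m by 0.58 ± 0.15 and H2-T23 by 0.48 ± 0.08 (limma adjusted p = 0.00117, 0.00904 and 0.00124). H2-M2 differed by -3.71 ± 0.25 (limma adjusted p = 5.4e-06). H2-Q7 differed by 0.90 ± 0.35 and did not pass (limma adjusted p = 0.0557). It passed without WT sample 2 (0.90, limma adjusted p = 0.0225), without WT sample 3 (0.90, limma adjusted p = 0.0280) and without Usp22-KOB sample 1 (1.16, limma adjusted p = 0.0314).

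The light chain made up a smaller part against the heavy chains in both knockouts. The summed level of the 9 heavy chain genes was 1162, 1751 and 1017 TPM in WT, 12565, 11728 and 12829 TPM in Usp22-KOA, and 7215, 6739 and 7286 TPM in Usp22-KOB. B2m per heavy chain TPM was 0.820 to 0.883 in WT, 0.593 to 0.652 in Usp22-KOA and 0.705 to 0.747 in Usp22-KOB. The groups did not overlap. The classical pair made up 82.5% to 85.7% of the sum in WT, 87.9% to 88.4% in Usp22-KOA and 85.9% to 86.4% in Usp22-KOB. H2-K1 alone went from 35.1% to 39.3% of the sum in WT to 49.1% to 49.7% in Usp22-KOA and 44.4% to 47.2% in Usp22-KOB. H2-T23 went the other way, from 7.13% to 10.06% in WT to 4.88% to 5.12% and 6.00% to 6.44%, although its own level rose. The 10 members held 0.190% to 0.319% of all TPM in WT, 1.94% to 2.08% in Usp22-KOA and 1.18% to 1.25% in Usp22-KOB. These sums and shares are descriptions of 3 samples per group and were not tested.

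**Figure D4:**
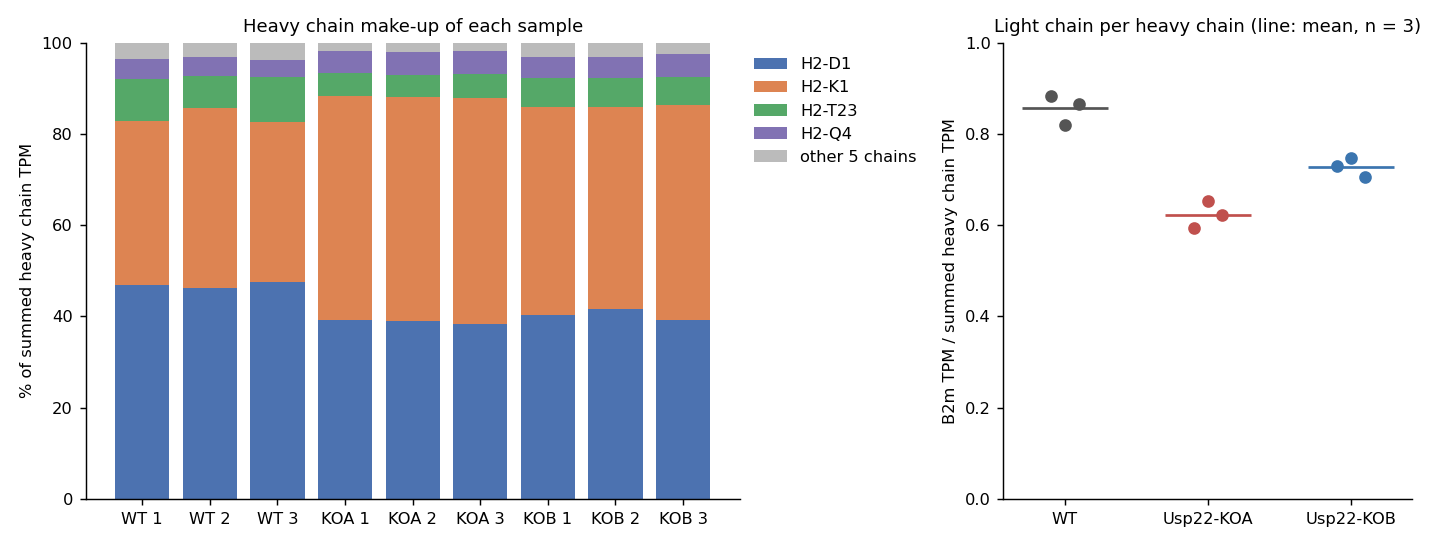
Left, the percent of the summed heavy chain TPM held by H2-D1, H2-K1, H2-T23, H2-Q4 and the other 5 heavy chain members in each sample. Right, B2m TPM divided by the summed heavy chain TPM in each sample, with the group mean (n = 3): the 3 groups do not overlap and Usp22-KOA is lowest, at 0.593 to 0.652.

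The order of the members by mean level was B2m, H2-D1, H2-K1, H2-T23, H2-Q4, H2-M3, H2-T22, H2-Q7, H2-Q6 and H2-M2 in WT. The ranges of H2-D1 and H2-K1 overlapped there, as did those of H2-M3 and H2-T22. In both knockouts H2-K1 stood above H2-D1 with no overlap. In Usp22-KOB the last tested 4, H2-M3, H2-T22, H2-M2 and H2-Q7, had mean levels of 53.7, 53.0, 50.2 and 48.5 TPM and overlapping ranges. In Usp22-KOA H2-M2 lay far below these, at a mean of 2.82 TPM.

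Within WT, sample 2 was the highest for 8 of the 9 tested members, and H2-T22 was lowest there. WT sample 3 was lowest for 7 of 9. Pan-leukocyte markers were in the same order, summing over 10 genes to 409, 607 and 341 TPM in WT samples 1, 2 and 3. The macrophage and monocyte sums were not, at 2061, 3234 and 2142 TPM. In Usp22-KOA the pan-leukocyte sums were 977, 816 and 486 TPM, while sample 3 was highest for 4 of 9 members and sample 1 for 3. In Usp22-KOB they were 1758, 1617 and 837 TPM, while sample 1 was highest for 5 of 9 members and sample 3 for 3. The part of host cell markers in the spread of the class I genes within a group was not tested.

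Markers of host cells also moved with the groups. The 10 pan-leukocyte markers summed to 341 to 607 TPM in WT, 486 to 977 in Usp22-KOA and 837 to 1758 in Usp22-KOB. Of these 2 of 10 rose in Usp22-KOA, no more than the share of all genes, and 9 of 10 in Usp22-KOB. The 9 T and NK cell markers in the table summed to 7.68 to 13.7, 38.5 to 93.7 and 20.9 to 57.1 TPM. Of the 8 tested 5 rose in Usp22-KOA and 7 rose in Usp22-KOB. Some of the 8 had a WT mean under 1 TPM and reached the tested level only through the knockout samples. This count was therefore partly set by the filter. The 10 macrophage and monocyte markers summed to 2061 to 3234, 1382 to 3484 and 5615 to 10075 TPM. Of these 4 of 10 rose in the mean of both knockouts, 0 of 10 in Usp22-KOA by limma (0 of 10 at an unadjusted p under 0.05, with a median difference of -0.027) and 10 of 10 in Usp22-KOB. None of these markers was at 0 in all samples. Of the fibroblast markers 7 of 10 fell in Usp22-KOA and 4 of 10 rose in Usp22-KOB, with sums of 514 to 936, 192 to 235 and 821 to 1259 TPM. Of the endothelial markers 9 of 9 fell in Usp22-KOA and 1 of 9 in Usp22-KOB, with sums of 54.8 to 73.8, 13.3 to 20.7 and 44.8 to 67.5 TPM.

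The samples with the most myeloid markers were not those with the most B2m or H2-K1. Usp22-KOA sample 3 had the lowest myeloid marker sum of the 9 samples, 1382 TPM, and the highest B2m, 7981 TPM, and the highest H2-K1, 6370.5 TPM. The Usp22-KOB samples had the highest myeloid sums and lay below Usp22-KOA for 8 of the 9 tested members. H2-M2 followed another order: its 3 highest samples were the 3 with the highest myeloid sums. Within Usp22-KOB, sample 3 was lowest in both, with 35.6 TPM of H2-M2 and 5615 TPM of myeloid markers, against 54.6 and 60.3 TPM with 10075 and 9867 TPM in samples 1 and 2. The sums of the T and NK cell markers were in the group order of the other 8 members, lowest in WT and highest in Usp22-KOA by mean, though the Usp22-KOA and Usp22-KOB ranges overlapped. The part of host cells in the level of any member was not tested.

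**Figure D5:**
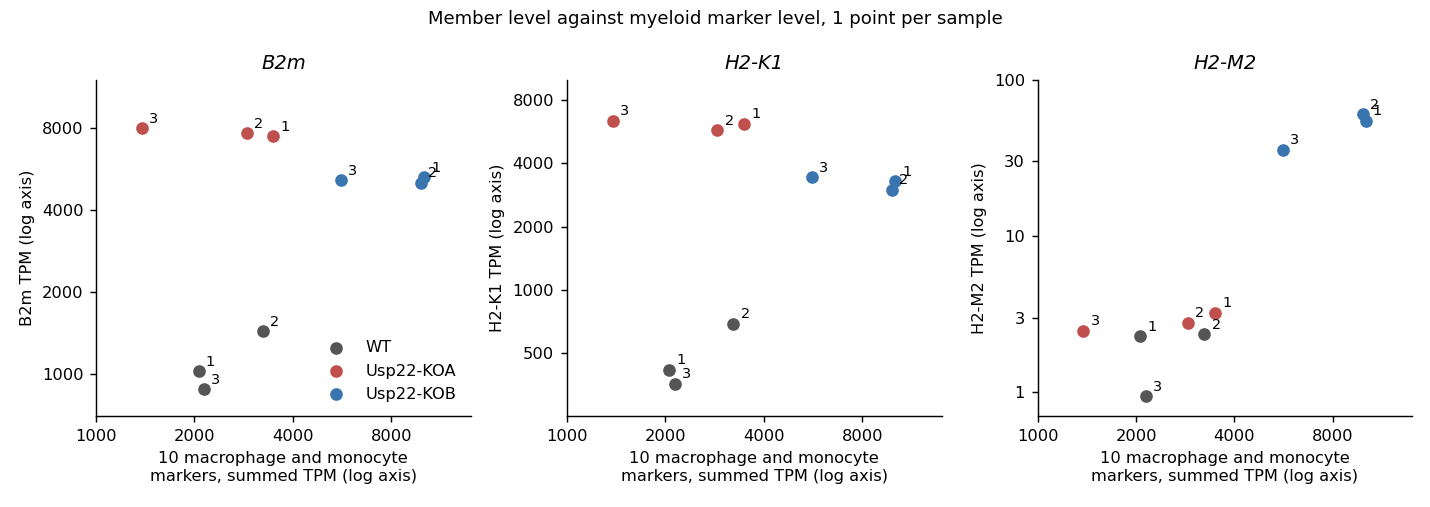
TPM of B2m, H2-K1 and H2-M2 in each of the 9 samples against the summed TPM of 10 macrophage and monocyte markers, on log axes, with the sample number beside each point. B2m and H2-K1 are highest in Usp22-KOA sample 3, which has the lowest marker sum, and H2-M2 is highest in the 3 Usp22-KOB samples, which have the highest sums.

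The table holds 24 other H2 class I genes, most of them Q, T and M region genes and pseudogenes. Of the 10 tested, 8 rose in the mean of both knockouts (25.9% of all tested genes), with a median difference of 2.12. In Usp22-KOA 8 rose (29.4% of all genes), and in Usp22-KOB 8 (18.7%). Their values are not independent of the members. Of H2-T22 words 47.2% were shared with H2-T10, and of H2-Q7 words 15.5% with H2-Q5. For H2-Q8 and H2-T9, which had no entry by that symbol, sharing was not counted. H2-Q8 rose by 4.22 ± 0.10, from 4.26 to 5.77 TPM in WT to 172 to 176 in Usp22-KOA and 63.3 to 80.6 in Usp22-KOB (limma adjusted p = 2.7e-08). H2-T9 rose by 2.40 ± 0.10, H2-Q5 by 2.22 ± 0.13 and H2-T10 by 2.02 ± 0.13 (limma adjusted p of at most 4.0e-06 for H2-T10). H2-M1, H2-M10.1, H2-M10.3, H2-M10.4 and H2-M11 were listed at 0 in all 9 samples.

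Class I-like genes outside the H2 complex were divided. Of 12 tested, 9 rose in the mean of both knockouts, with a median of 0.72. In Usp22-KOA 7 rose and 2 fell, and in Usp22-KOB 6 rose and 1 fell. Of all tested genes 25.9%, 29.4% and 18.7% were called higher in these comparisons. Raet1d and H60c, ligands of the activating receptor NKG2D, were near 0 in WT and Usp22-KOB and stood at 8.39 to 9.15 and 3.84 to 4.97 TPM in Usp22-KOA. Both reached the tested level only through Usp22-KOA. The knockouts differed by 2.99 ± 0.16 for Raet1d and 2.24 ± 0.17 for H60c (limma adjusted p = 1.6e-06 and 9.95e-06). Raet1e and Raet1a, of the same ligand family, rose by 0.80 ± 0.09 and 0.89 ± 0.11 in the mean of both knockouts (limma adjusted p = 9.95e-05 and 2.1e-04).

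Genes that supply and load peptides rose as well. Of 13 tested, 10 rose and 1 fell in the mean of both knockouts, with a median of 0.93 against 2.53 for the members. In Usp22-KOA 12 rose and 0 fell, and in Usp22-KOB 10 rose and 3 fell. Of all tested genes 25.9%, 29.4% and 18.7% were called higher in these comparisons. The chaperone genes Calr and Pdia3 went in opposite directions, by 0.26 ± 0.04 and 0.14 ± 0.04 in Usp22-KOA and by -0.28 ± 0.04 and -0.14 ± 0.04 in Usp22-KOB (limma adjusted p from 9.4e-04 for Calr to 0.0239 for Pdia3). Psmb9 and Psmb10, catalytic subunits of the immunoproteasome, rose by 3.03 ± 0.19 and 1.22 ± 0.06 (limma adjusted p = 3.3e-06 and 1.1e-06). Erap1, which trims peptides in the endoplasmic reticulum, rose by 1.17 ± 0.07 and Tapbp, the tapasin that bridges class I to the peptide transporter, by 0.93 ± 0.05 (limma adjusted p = 2.0e-06 and 2.2e-06). Of 13 regulators of class I transcription 3 rose and 3 fell in the mean of both knockouts, with a median of -0.055. In Usp22-KOA 3 rose and 4 fell, and in Usp22-KOB 3 rose and 1 fell. These counts of regulators that rose were near the shares of all tested genes given above. Nlrc5 rose by 2.98 ± 0.20 and Irf1 by 0.97 ± 0.08 (limma adjusted p of at most 1.4e-05 for Irf1), and Rfxap, a subunit of the RFX complex, fell by 0.41 ± 0.08 (limma adjusted p = 0.00245).

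Interferon receptors and signalling genes were tested in the same way. Of 10 tested 7 rose in the mean of both knockouts, with a median of 0.33, against 7 in Usp22-KOA, where 1 fell, and 6 in Usp22-KOB. The shares of all tested genes called higher were 25.9%, 29.4% and 18.7%. Stat2 rose by 0.92 ± 0.09, Socs1, a feedback inhibitor of the pathway, by 1.06 ± 0.13, and Irf9 by 0.61 ± 0.09 in the mean of both knockouts (limma adjusted p of at most 4.6e-04 for Irf9). The receptor chain Ifngr2 rose in Usp22-KOA (0.88 ± 0.07, limma adjusted p = 6.2e-06) and did not pass in Usp22-KOB (0.12 ± 0.07, limma adjusted p = 0.197). Ifng, which encodes interferon gamma, was below the level tested. It was listed at 0, 0.0844 and 0 TPM in WT, 2.45, 2.30 and 1.62 TPM in Usp22-KOA, and 1.03, 0.293 and 0.0962 TPM in Usp22-KOB. Its group means of 0.0281, 2.13 and 0.474 TPM were in the order WT, Usp22-KOB, Usp22-KOA, as for 8 members, and its part in their levels was not tested.

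The genes whose level was most like that of B2m over the 9 samples were found among the 10742 genes outside the members with a mean of at least 5 TPM. They were the predicted gene Gm12250, Tap1, a chain of the peptide transporter, Nlrc5, and the interferon-inducible GTPases Tgtp1 and Igtp, with Pearson's r of 0.999, 0.999, 0.998, 0.998 and 0.998 on the log2(TPM + 1) scale. Among the members r with B2m was 0.998 for H2-K1 and for H2-D1, 0.998 for H2-Q4, 0.996 for H2-T23, 0.990 for H2-M3, 0.985 for H2-Q7, 0.971 for H2-T22, 0.417 for H2-M2 and -0.371 for H2-Q6. The 9 samples fall into 3 groups, so these values mostly reflect the group differences and are given as a measure of likeness only.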

How the data were processed

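The deposited table gives TPM per gene, made by the authors and scaled to 1000000 per library. Per the submitters' processing notes the build was mm10 and the tools were Salmon and DESeq2, with no role or version named, and the transcript set is not given there. Each of the 9 columns matched 1 sample by its label. Values were tested as log2(TPM + 1), for 13843 genes whose mean reached 1 TPM, leaving out 10650. A single limma model (lmFit, contrasts.fit, eBayes with trend) held a mean per group over the 9 samples, and p-values were Benjamini-Hochberg adjusted over all tested genes. The fit was tested on simulated data. The members and lists were chosen with earlier results of these data known. Named genes were the members, Usp22, of each list the up to 4 genes ranked first by adjusted p in both knockouts, and the 5 most like B2m. Of the genes that the rule selects, those of the marker lists are given only within their lists' sums and counts, and 1 other is not reported here. Calr, Pdia3, Ifng and the genes listed at 0 were named after their values were seen. 31-base words were compared on the sense strand of GENCODE M21 transcripts. Promoters are from RefSeq (GRCm38.p6). Alternatives were pseudocounts of 0.1 and 5, median-of-ratios scaling, quantile normalization, no filter or a minimum mean of 5 TPM, array weights, no trend, a replicate block, fits of only the compared groups, 1 group of all 6 knockout samples, and each sample left out. Fits ran in limma 3.58.1 on R 4.3.3, and other steps in Python 3.11.15 with numpy 2.4.6, pandas 2.3.3 and matplotlib 3.10.9.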

Additional observations from a re-analysis of the deposited data

Results flagged for a closer look

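The members for which the difference from WT was not the same in both knockouts, by the limma contrast of Usp22-KOA with Usp22-KOB, were 7 of the 9 tested. The difference in Usp22-KOA exceeded that in Usp22-KOB by 0.91 for H2-K1, 0.88 for H2-Q4, 0.75 for H2-D1, 0.63 for H2-T22, 0.58 for B2m and 0.48 for H2-T23 on the log2 scale. For H2-M2 it was -3.71, the reverse direction. Of all tested genes 51.7% differed between the knockouts, so a difference between them is common in these data. Groups of 3 samples are too small for a test of single outlying samples.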

How the results depend on the processing

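For both knockouts against WT 9 members passed in all alternatives (9 of 10 with no filter, where H2-Q6 was tested and did not pass, limma adjusted p = 0.243) but the 6 knockout samples as 1 group, where 8 passed and H2-M2 did not (limma adjusted p = 0.159). That setting left 2946 of 13843 genes called, against 6920. Without each sample in turn the counts stayed at 9 for both knockouts and for Usp22-KOB, at 8 for Usp22-KOA, and at 7 to 8 between the knockouts. Of 684 alternative values of single members, 672 kept direction and side of the threshold, 11 newly passed and 1 no longer did, and 0 reversed. H2-Q7 between the knockouts newly passed in 8 of 19 alternatives (0.85 to 1.16), H2-M3 there with array weights (0.25, limma adjusted p = 0.0372), and H2-M2 in Usp22-KOA with quantile normalization (0.78, limma adjusted p = 0.0253). The array weights stopped before their convergence tolerance was met.

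Samples of different groups were correlated on the deviations of each gene from the mean of the sample's own group, on the scale tested. These values are therefore not correlations of whole expression profiles. Over all 3 groups, 2 of 9 same-number pairs of samples had such a correlation over 0.1, against 5 of 18 other pairs. The ranges were -0.125 to 0.276 and -0.235 to 0.201. Between the knockouts alone, the same-number pairs had 0.187, 0.077 and 0.276, and the other pairs -0.235 to 0.104. Not every sample correlated best with its own number, and pairs with WT did not show this pattern. With the replicate block 9 members passed for both knockouts, 9 for Usp22-KOA (H2-M2 newly, limma adjusted p = 0.0288), 9 for Usp22-KOB and 8 between the knockouts (H2-Q7 newly, limma adjusted p = 0.0212). The depth is unknown, so a value of 0, as for H2-Q6, sets no upper limit.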
